A study of Mus musculus with 9 samples.

Results

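Of the 24630 NF-κB peaks called 6 h into TNF treatment in 4 ChIP-seq libraries of *Nfkb2*-/- MEFs, 10042 (40.8%) were called in 1 library only. These single-library peaks were chosen by position alone, as peaks of one 6 h list that shared no base with a peak of the other 3 lists. RelA replicate 1 held 3468 of them among 7052 peaks (49.2%), RelA replicate 2 held 2297 among 5688 (40.4%), RelB replicate 1 held 1556 among 5192 (29.97%) and RelB replicate 2 held 2721 among 6698 (40.6%). Another 4355 peaks were shared with 1 other library, 4023 with 2 others and 6210 with all 3 others. The last class is called 4-library peaks here.

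The cells were immortalised mouse embryonic fibroblasts (MEFs) that lack *Nfkb2*, the gene of the p100 precursor, and all groups carried this deletion. They received 10 ng/ml TNF for 0 or 6 h, and an antibody to RelA (p65) or one to RelB was used for precipitation, giving 2 libraries per antibody and time. Peaks of every library were called against 1 input library, combined from 2 replicates of the same genotype. No source says whether the libraries came from separate cultures, and peak lists hold no expression values by which the cell type could be checked against its markers.

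RelA and RelB are the transactivating subunits of NF-κB heterodimers, which often pair with p50. In resting cells, IκB proteins keep RelA-containing dimers in the cytoplasm, and TNF releases them through IKK. p100 retains RelB in particular. Both kinds of dimer bind κB sites, short sequences that start with paired guanines and end with paired cytosines. A ChIP-seq peak is a stretch where immunoprecipitated reads exceed input reads, so a weakly enriched site can pass the threshold in one library and miss it in the next, and so can a fluctuation of background. Sequence under the peak took no part in the calls.

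A κB match means a hit to the 10-base κB consensus on either strand within 100 bases of the peak centre. It can therefore lie outside a short peak. The windows shown next were read from the plus strand of mm9, 5′ to 3′, with κB matches in capitals. The first pair lies upstream of TNF-responsive genes at whose start site no other library had a peak within 1 kb. The sites at *Rnf144a* and on chromosome 15 were among the 3 strongest with a match in their list and lay far from every other called site. *Rnf216* and *Zzz3* windows show strong peaks beside a peak of another list, and the *Snx4* window shows a strong isolated peak without a match.
Upstream of Ptgs2, RelB replicate 1 (mm9 chr1:151946763-151946963): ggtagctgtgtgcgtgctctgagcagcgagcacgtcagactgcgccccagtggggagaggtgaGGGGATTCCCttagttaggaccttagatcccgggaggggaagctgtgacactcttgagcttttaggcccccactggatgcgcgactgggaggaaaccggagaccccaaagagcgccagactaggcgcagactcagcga
Upstream of Ikbke, RelB replicate 1 (mm9 chr1:133176728-133176928): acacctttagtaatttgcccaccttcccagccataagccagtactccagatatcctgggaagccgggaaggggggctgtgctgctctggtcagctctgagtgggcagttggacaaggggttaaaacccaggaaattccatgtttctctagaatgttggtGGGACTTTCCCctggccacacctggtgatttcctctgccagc
Rnf144a intron, RelA replicate 1 (mm9 chr12:27041221-27041421): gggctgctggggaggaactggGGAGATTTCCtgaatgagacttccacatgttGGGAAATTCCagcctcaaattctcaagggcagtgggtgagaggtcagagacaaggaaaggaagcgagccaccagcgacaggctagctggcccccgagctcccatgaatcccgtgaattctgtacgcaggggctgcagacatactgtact
Intergenic site, RelA replicate 2 (mm9 chr15:61279952-61280152): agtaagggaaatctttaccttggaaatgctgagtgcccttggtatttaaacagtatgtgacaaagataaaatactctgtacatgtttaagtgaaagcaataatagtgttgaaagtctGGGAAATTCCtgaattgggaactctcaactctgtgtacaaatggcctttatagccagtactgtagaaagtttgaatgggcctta
Rnf216 intron, RelB replicate 1 (mm9 chr5:143813711-143813911): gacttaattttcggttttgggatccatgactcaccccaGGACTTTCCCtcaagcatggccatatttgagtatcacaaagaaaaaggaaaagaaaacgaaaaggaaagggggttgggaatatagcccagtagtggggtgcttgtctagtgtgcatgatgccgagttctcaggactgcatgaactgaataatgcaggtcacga
Zzz3 intron, RelB replicate 2 (mm9 chr3:152132520-152132720): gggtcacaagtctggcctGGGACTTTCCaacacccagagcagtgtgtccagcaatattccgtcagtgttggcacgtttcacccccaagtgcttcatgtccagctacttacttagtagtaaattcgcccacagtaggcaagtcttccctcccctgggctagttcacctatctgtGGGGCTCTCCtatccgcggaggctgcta
Snx4 intron, RelB replicate 2 (mm9 chr16:33254482-33254682): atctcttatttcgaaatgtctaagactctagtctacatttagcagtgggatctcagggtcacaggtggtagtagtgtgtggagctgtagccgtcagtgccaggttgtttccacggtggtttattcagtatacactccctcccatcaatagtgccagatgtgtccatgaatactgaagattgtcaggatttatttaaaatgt

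At the *Ptgs2* promoter, 391 bases upstream of the start site, a peak of RelB replicate 1 counted 13 ChIP reads over 6 input reads. *Ptgs2* encodes the inducible cyclooxygenase of prostaglandin synthesis. The log2 fold of the peak over input was 2.94. Folds here are the highest that the caller wrote within a peak, so they need not match the ratio of its reads. The window held GGGGATTCCC, which was outside the called peak. The *Ikbke* peak, also of RelB replicate 1, had 11 ChIP reads over 6 input reads. Its log2 fold was 1.74 and its false discovery rate 0.0513. Its window held 2 overlapping κB matches, which appear as 1 run of capitals and were outside the called peak. *Ikbke* encodes IκB kinase epsilon. The nearest peak of another list was 98101 bases away from the *Ptgs2* site and 167328 bases away from the *Ikbke* site. In the *Rnf144a* intron, RelA replicate 1 counted 24 ChIP reads over 6 input reads, a log2 fold of 3.91, with the next peak of another list 825909 bases off.

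Read numbers, folds and false discovery rates (FDR) took part in the calls that chose these peaks, so they are a description only. The FDR of a peak is the lowest that the caller wrote within it. Single-library peaks were weak. Their median number of ChIP reads was 12 in RelA replicate 1, 13 in RelA replicate 2, 12 in RelB replicate 1 and 12 in RelB replicate 2. In 4-library peaks the medians were 35, 34, 32 and 38. The smallest single-library peaks had 11, 11, 10 and 11 reads, at the floor of each list, and the largest had 78, 80, 62 and 105. Median input reads were 4, 5, 5 and 4, against 10, 10, 10 and 11 at 4-library peaks. Both ChIP and input reads were therefore fewer in the single-library class, whose peaks were also shorter. The median length was 30 bases in all 4 lists, against 200, 203, 170 and 185 in 4-library peaks, and 59.7, 62.0, 56.1 and 54.5% were of the 2 shortest lengths that the caller wrote, 29 and 30 bases.

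Enrichment over input, taken as the highest fold within each peak, separated the classes less than reads did. The median log2 fold of single-library peaks was 2.46, 2.28, 2.50 and 2.35, in the order RelA replicates 1 and 2 and RelB replicates 1 and 2, against 3.23, 3.17, 3.29 and 3.31 in 4-library peaks. An FDR under 0.01 was reached by 626 (18.1%), 410 (17.8%), 590 (37.9%) and 663 (24.4%) of the single-library peaks. RelB replicate 1, the shortest list, had the smallest share of its peaks in this class and the largest share of low FDR within it. The order of the shares depended on list length. With the 5192 top-ranked peaks of each list, 1958, 1989, 1672 and 1577 were single-library peaks, the fewest in RelB replicate 2. Of the reads that each library had in its peaks, 30.7, 24.5, 17.5 and 23.7% lay in single-library peaks. Few of these peaks, 1.12, 4.40, 1.09 and 0.956%, had no input read at all.

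**Figure D1:**
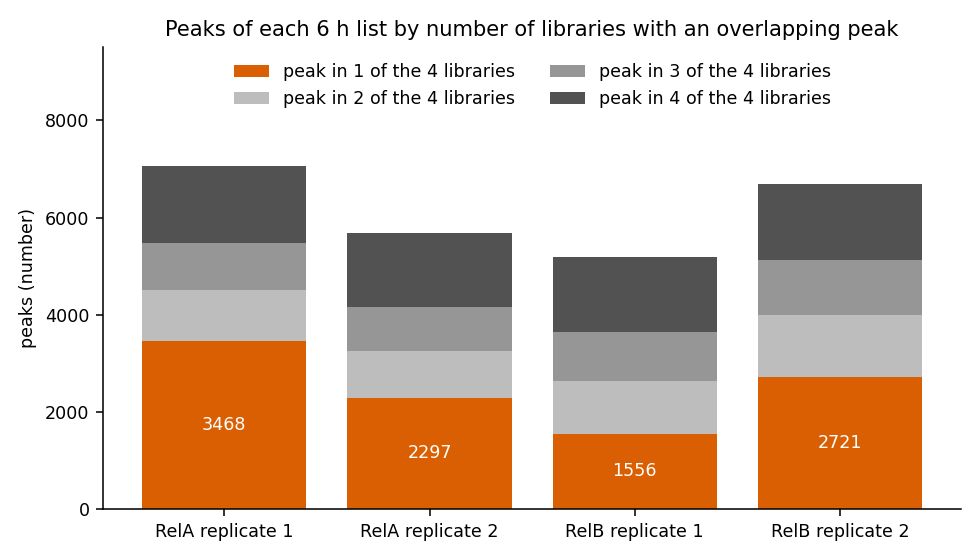
Number of peaks in each 6 h list (vertical axis), split by how many of the 4 libraries had an overlapping peak. The orange blocks, with their counts, are the single-library peaks and take between 29.97% of the list of RelB replicate 1 and 49.2% of that of RelA replicate 1.

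The overlap rule has a sharp edge at 1 shared base. Just outside a peak of another list, at 0 to 4 bases, lay 21, 17, 19 and 27 single-library peaks, with a median log2 fold of 2.24, 2.28, 2.60 and 2.88. Peaks that were shared by only 1 to 5 bases numbered 32, 31, 25 and 32, with median log2 folds of 2.98, 2.28, 2.80 and 2.62. A κB match was present in 13, 7, 13 and 15 of the former and in 14, 13, 16 and 19 of the latter.

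κB matches were found in 31.1% of the 3468 single-library peaks of RelA replicate 1, 29.95% of the 2297 of RelA replicate 2, 40.2% of the 1556 of RelB replicate 1 and 36.3% of the 2721 of RelB replicate 2. Wilson 95% intervals were 29.6 to 32.7%, 28.1 to 31.9%, 37.8 to 42.6% and 34.5 to 38.1%, and these, like all intervals here, cover counting error only. Windows of the same width 1000 bases downstream held a match in 12.5, 12.8, 11.3 and 11.8%. Those 1000 bases upstream held one in 12.3, 13.2, 12.2 and 11.9%. The gain over the downstream flank was 18.7, 17.2, 28.9 and 24.5 percentage points, positive in 4 of 4 libraries. Each gain passed an exact McNemar test (two-sided, Benjamini-Hochberg adjusted over the 4 libraries), with adjusted p of 1.15e-78, 1.35e-48, 3.55e-74 and 1.47e-97. In 25580 windows placed every 100 kb along the genome, 9.03% had a match, and of 22367 windows at start sites of protein-coding genes 21.1% did.

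Sites called in all libraries held the motif far more often. The share in 4-library peaks was 75.8, 76.9, 78.7 and 78.9%, and single-library peaks differed from it by -44.7, -46.9, -38.5 and -42.6 percentage points (Fisher's exact test, two-sided, adjusted p = 7.22e-196, 8.70e-185, 6.52e-109 and 1.94e-166). The 4-library class holds nearly the same sites in every list, so these comparisons are not independent of one another. Peaks of 2 libraries lay between, at 55.7, 58.0, 58.1 and 56.8%, and peaks of 3 libraries at 64.6, 67.5, 65.9 and 68.4%. Downstream flanks did not follow that order and stayed between 10.9 and 13.2% in all classes, and upstream flanks between 9.76 and 13.4%. Peaks within 1 library are not replicates of a condition, and the tests measure the spread between sites.

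**Figure D2:**
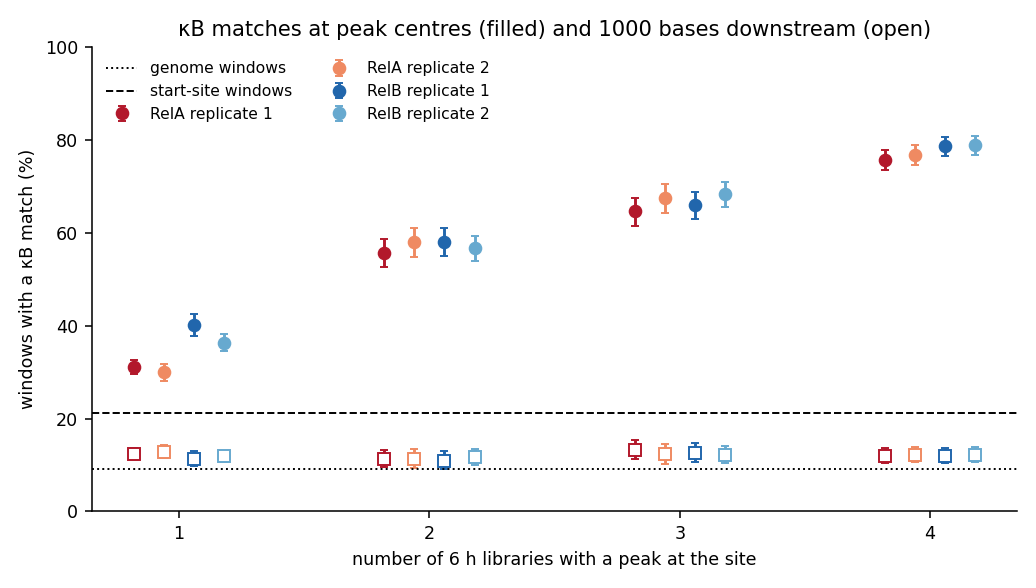
Share of windows with a κB match (vertical axis, %) by the number of 6 h libraries with a peak at the site (horizontal axis), one colour per library, with Wilson 95% intervals. Filled circles are windows at peak centres, open squares windows 1000 bases downstream, and the dotted and dashed lines mark 9.03% in genome windows and 21.1% at start sites. Single-library peaks sit between 29.95 and 40.2%, above their flanks and below every other class.

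Both RelB libraries had a higher κB share in their single-library peaks than both RelA libraries. With 2 libraries against 2, the smallest p of a two-sided exact permutation test is 0.333, above the threshold of 0.05, and this difference was not tested over libraries. List lengths differed as well, from 5192 peaks in RelB replicate 1 to 7052 in RelA replicate 1. With the same number of top-ranked peaks taken from each list, the gain over flanks was 24.7, 19.005, 29.8 and 31.5 percentage points, still higher in both RelB libraries than in both RelA libraries.

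κB matches became more frequent with the strength of the call. At FDR under 0.01, 47.3, 42.7, 47.6 and 49.2% of single-library peaks had a match. Between 0.01 and 0.05 the shares were 31.01, 29.8, 38.5 and 38.5%, and between 0.05 and 0.1 they were 25.6, 24.9, 29.4 and 28.5%. The weakest bin was thus still above its flanks, at 12.5, 10.8, 13.7 and 11.4%. Numbers of peaks in this bin were 1823, 1007, 306 and 1305. In the strongest bin RelA replicate 1 and both RelB libraries lay within 47.3 to 49.2%, with RelA replicate 2 below them.

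The same held for ChIP reads up to 19. Peaks with 10 to 11 reads had a match in 22.2, 22.4, 33.4 and 25.1%, those with 12 to 14 reads in 30.2, 25.6, 41.6 and 36.2%, and those with 15 to 19 reads in 43.2, 37.7, 51.7 and 50.6%. At 20 or more reads RelA peaks had a match in 51.0 and 49.4% and RelB peaks in 45.7 and 46.7%, where 129 and 270 peaks remained. At equal read numbers the classes still differed. In peaks of 15 to 19 reads, 4-library peaks had a match in 68.5, 64.8, 82.1 and 73.7%, and at 20 or more reads in 77.0, 78.8, 78.5 and 79.5%. Restricted to peaks with 15 to 19 reads in both classes, single-library peaks differed from 4-library peaks by -25.3, -27.1, -30.4 and -23.2 percentage points (Fisher's exact test, adjusted p of at most 3.69e-06).

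**Figure D3:**
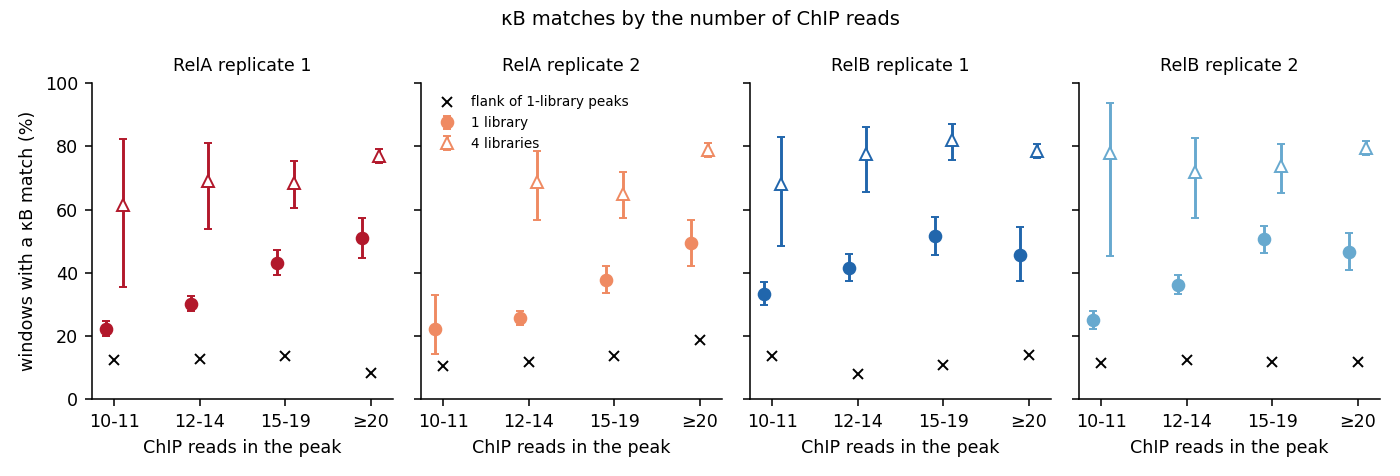
Share of windows with a κB match (vertical axis, %) by ChIP reads in the peak (horizontal axis), one panel per library, with Wilson 95% intervals. Circles are single-library peaks, triangles 4-library peaks and crosses the downstream flanks of the single-library peaks. At 15 to 19 reads the circles stand at 43.2, 37.7, 51.7 and 50.6% and the triangles at 68.5, 64.8, 82.1 and 73.7%.

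Input reads, which were counted per peak and not divided by its length, moved in the same direction between the low and high ends. With 1 to 2 input reads a κB match was found in 27.9, 25.3, 31.1 and 28.8% of single-library peaks. With 10 or more input reads it was found in 54.2, 43.8, 43.5 and 48.7%, in 131, 96, 108 and 150 peaks. Peaks split by fold showed a smaller change. At a log2 fold under 2 the κB share was 31.1, 28.97, 36.5 and 34.7%, and at 3 or more it was 37.9, 30.4, 43.6 and 45.9%.

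κB matches were more frequent around the centre of single-library peaks than far from it. In the 40 bases before the centre, 8.68, 7.92, 11.4 and 9.96% of peaks had a match, against 3.95, 3.83, 3.92 and 3.31% in the 40 bases that start 240 before it. The corresponding shares in 4-library peaks were 25.02, 24.3, 27.6 and 26.2% near the centre and 3.83, 4.45, 3.82 and 3.69% far from it. Single-library peaks had a match 40 to 80 bases after the centre in 7.61, 8.05, 9.64 and 6.84%, which was the highest interval of RelA replicate 2. Far from the centre, both classes had reached a similar level. A second match in the window was present in 10.1, 10.9, 11.4 and 9.89% of single-library peaks and in 34.1, 33.2, 34.8 and 34.7% of 4-library peaks.

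**Figure D4:**
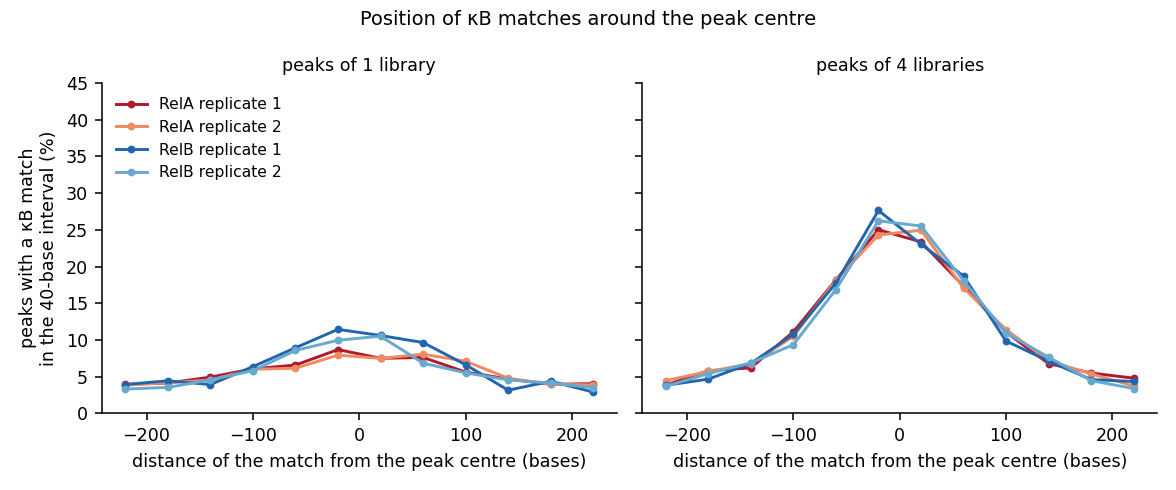
Share of peaks with a κB match in consecutive 40-base intervals (vertical axis, %) by distance from the peak centre (horizontal axis, bases), for single-library peaks (left) and 4-library peaks (right), one line per library. Single-library peaks rise to between 7.92 and 11.4% just before the centre, and 4-library peaks to between 24.3 and 27.6%.

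The κB sequences in single-library peaks of RelA and of RelB were set side by side, without a test. The 20 sequences with the largest excess over flanks, counted over all 4 lists, were compared as a share of the windows with any match (1079, 688, 625 and 988 windows). GGAAAGTCCC was in 3.06 and 3.92% of these windows for RelA and in 7.52 and 9.51% for RelB. GGAAACTCCC was in 1.48 and 2.03% for RelA against 4.96 and 5.87% for RelB, and GGAAAGCCCC in 1.76 and 2.03% against 4.96 and 4.45%. GGAAATCCCC, by contrast, stood at 4.63 and 3.78% in RelA libraries against 4.16 and 4.35% in RelB libraries, and GGAAATTCCC at 3.61 and 4.07% against 3.52 and 3.74%. These last sequences overlapped between the antibodies in single-library peaks.

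Of the 20 sequences, 7 were more frequent in both RelB libraries than in both RelA libraries, 2 were more frequent in both RelA libraries, and 11 overlapped. Among all 374 matched sequences of the single-library peaks, 12.6% were higher in both RelB libraries and 20.6% in both RelA libraries. Peaks called in both libraries of one antibody and in neither of the other had the same order for GGAAAGTCCC, with 2.59 to 3.91% for RelA and 12.1 to 13.8% for RelB. GGAAATTCCC was higher for RelA there, with 5.19 to 5.47% against 3.87 to 4.01% for RelB, while GGAAATCCCC overlapped again. In that class 11 of the 20 sequences were higher for RelA, 7 for RelB and 2 overlapped. Of the 7 that were higher for RelB in single-library peaks, 6 were also higher for RelB there and GGAATTCCCC was higher for RelA. Of the 11 that overlapped in single-library peaks, 8 were higher for RelA in that class, among them GGAATTTCCC with 7.78 to 7.81% against 2.06 to 2.29%. Both lists of that class hold overlapping sites and count there as 1 set, and no p was computed for any of these shares.

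Many members lay next to a called site. Within 200 bases of a peak of another list were 518 (14.9%), 434 (18.9%), 413 (26.5%) and 479 (17.6%) single-library peaks, in all 1844 of 10042 (18.4%). Within 1 kb were 2844 (28.3%), and the median distance over all members was 20187 bases. κB matches did not fall off evenly with distance. Up to 200 bases the share was 42.9, 39.6, 47.7 and 44.1%, and here the windows at the centre can themselves reach into the neighbouring peak. Beyond that and up to 1 kb it was 24.6, 22.2, 29.03 and 25.3%, the lowest of all distances, while the downstream flanks, which in this band can reach into the neighbouring peak, held one in 19.5, 20.4, 12.9 and 17.8%. Beyond 100 kb, where 801, 494, 292 and 618 peaks lay, it was 27.3, 26.9, 36.0 and 32.5%, against 9.99, 10.1, 9.93 and 8.74% in their flanks. Isolated peaks thus held the motif more often than their flanks in 4 of 4 libraries.

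By location, 39.6, 40.9, 42.5 and 41.1% of single-library peaks lay in introns and 40.9, 41.0, 44.3 and 45.4% between genes. Coding exons held 1.82, 1.74, 1.09 and 0.919%. Centres within 1 kb of an annotated start site made up 14.7, 14.1, 10.3 and 10.0%, against 2.77% of the genome windows. At start sites the κB share was 42.2, 43.3, 51.6 and 43.4%, higher than in introns (30.8, 27.2, 39.6 and 34.7%) or between genes (27.2, 27.7, 37.0 and 35.9%). Flanks of the peaks at start sites held a match in 15.9, 17.6, 10.6 and 11.03%. The background is higher there too, at 13.4% of genome windows within 1 kb of a start site against 8.68% of those in introns and 8.91% of those between genes. Windows centred on protein-coding start sites held a match in 21.1%. GC content of the peak windows averaged 59.4, 58.5, 57.0 and 57.7% at start sites and 47.1, 46.6, 45.8 and 45.3% in introns. How far base composition goes with the higher κB share at start sites was not tested.

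Start-site shares relative to 4-library peaks differed in sign between the antibodies. RelA replicates 1 and 2 had 14.7 and 14.1% of their single-library peaks there, against 13.4 and 13.6% of their 4-library peaks, differences of 1.30 and 0.506 percentage points that did not pass Fisher's exact test (adjusted p = 0.298 and 0.667). RelB replicates 1 and 2 had 10.3 and 10.0% against 12.9 and 13.05%. The difference was -2.53 percentage points in replicate 1 and -3.05 in replicate 2 (Fisher's exact test, adjusted p = 0.0576 and 0.00988), so that 1 of the 4 libraries passed. That call was lost within 5 kb of a start site (-2.90), at FDR from 0.01 to 0.1 (-1.75), among peaks with 10 to 19 reads (-0.864) and without RelA replicate 2 (-1.81). Among peaks with 10 to 19 reads RelA replicate 2 passed instead, at 7.15 percentage points. The difference between the antibodies was not tested over libraries. The RelA replicate 2 value turned negative, to -1.04, -0.952 and -1.31 percentage points, when peaks within 200 bases, centres within 500 bases or all members within 1 kb of another list's peak no longer counted as single.

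**Figure D5:**
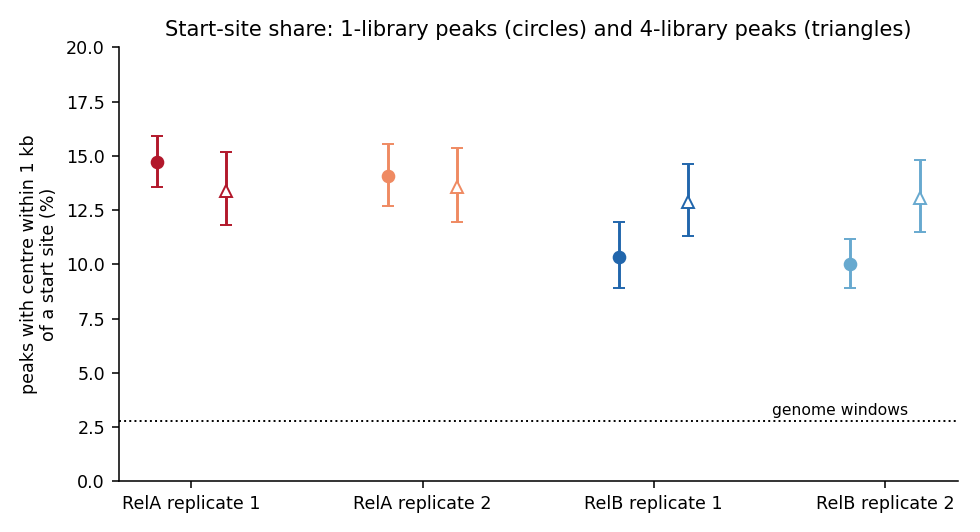
Share of peaks with the centre within 1 kb of an annotated start site (vertical axis, %) for each 6 h library, with Wilson 95% intervals. Filled circles are single-library peaks, open triangles 4-library peaks, and the dotted line marks 2.77% in genome windows. Circles stand at 14.7 and 14.1% for RelA and at 10.3 and 10.0% for RelB, while the triangles stay between 12.9 and 13.6%.

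The AP-1 motif TGANTCA, bound by Fos and Jun dimers, was searched on both strands in the same windows. Single-library peaks held it in 10.6, 10.9, 14.6 and 13.1%, against 5.68, 4.92, 5.59 and 5.81% in their downstream flanks (exact McNemar test, adjusted p = 7.15e-14, 4.53e-14, 9.39e-17 and 7.47e-20). In 4-library peaks it was in 18.3, 18.1, 18.6 and 18.3%, so the single-library class differed by -7.70, -7.21, -3.99 and -5.25 percentage points (Fisher's exact test, adjusted p = 8.44e-13, 8.22e-10, 0.0032 and 6.27e-06). Genome windows held it in 6.10%. With RelB replicate 2 left out, the RelB replicate 1 difference was -0.285 percentage points and did not pass (Fisher's exact test, adjusted p = 0.834), and with FDR under 0.01 in all lists no library passed (adjusted p from 0.0838 to 0.610).

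GC content differed little. The windows of single-library peaks averaged 48.7 ± 9.42% (SD, n = 3468), 47.997 ± 9.03% (n = 2297), 46.5 ± 9.36% (n = 1556) and 46.2 ± 9.24% (n = 2721), against 49.7, 49.7, 49.6 and 49.7% in 4-library peaks. The differences of -1.03, -1.70, -3.10 and -3.54 percentage points passed a permutation test (two-sided, 100000 resamples, adjusted p = 0.00017, 1.33e-05, 1.33e-05 and 1.33e-05). The last 3 come from the smallest unadjusted p that these resamples can give. Genome windows averaged 41.8%. For both RelA libraries the sign turned, to 0.105 and 0.917 percentage points, among peaks with 10 to 19 reads, while the RelB differences stayed at -2.70 and -2.34 percentage points.

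Genes were linked to a single-library peak when their start site lay under 50 kb from its centre. Over all 22380 protein-coding genes, 35.5% had at least 1 such peak. Lists of NF-κB-related and other genes were set against this share. Among 23 genes of NF-κB subunits, inhibitors and signalling, 15 had one (65.2%), as had 16 of 23 chemokine and cytokine genes (69.6%), 10 of 17 genes of adhesion and antigen presentation (58.8%) and 10 of 15 survival and oxidative defence genes (66.7%). Fibroblast matrix genes followed with 12 of 22 (54.5%) and ribosomal protein genes with 13 of 23 (56.5%). Genes of other tissues, chosen as ones that fibroblasts hardly use, had 9 of 28 (32.1%). Ribosomal protein genes are housekeeping genes of every cell, and their share was close to that of the matrix genes. Among chemokine and cytokine genes, the neighbours *Cxcl1* and *Cxcl2*, *Cxcl9* and *Cxcl10*, *Ccl2* and *Ccl7*, and *Tnf* and *Lta* had equal peak counts. The same peak can count for more than 1 gene there, as it can in the share of all genes.

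Genes with single-library peaks and no peak of 2 or more libraries made up 22.3% of all protein-coding genes. In the NF-κB list there was 1, *Ikbke*, with 3 peaks of RelB replicate 1, 2 of them with a κB match. *Il6*, the cytokine gene, was alone in its list, with 1 peak of RelB replicate 2 that held a match. *Irf7*, a regulator of interferon genes, had 1 peak of RelA replicate 2 and 1 of RelB replicate 2. Among survival and defence genes there were 3, *Ptgs2*, the prostaglandin E synthase gene *Ptges* and *Bcl2l1*, which encodes the anti-apoptotic Bcl-xL. Matrix genes had 5 (*Col3a1*, *Fn1*, *Vim*, *Lox* and *Timp1*), ribosomal protein genes 6 and genes of other tissues 5. By share, the NF-κB list was at 4.35% and the chemokine and cytokine list also at 4.35%, below the 22.3% of all genes, since 22 of 23 and 19 of 23 of their genes had a peak of 2 or more libraries.

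Near other genes single-library peaks added to shared ones. *Nfkbia*, the gene of IκBα, had 10 within 50 kb, namely 3, 2, 2 and 3 in the 4 lists, and 7 of the 10 held a κB match. *Csf1*, the macrophage growth factor gene, had 11, namely 4, 2, 3 and 2, of which 4 held a match. *Icam1*, a leukocyte adhesion molecule, had 4 from RelA replicate 1 and 2 from RelA replicate 2 and none from RelB, and 1 of the 6 held a match. All of these genes had peaks of 2 or more libraries in every list. The densest megabase of the genome, chr2:167000000-167999999, held 26 single-library peaks, 13 of them with a κB match, beside 16 peaks of the 4-library class, summed over the lists.

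Over all protein-coding genes, 4.73% had a single-library peak within 1 kb of the start site. Of the listed genes 19 did, with 23 peaks, and 11 of these peaks held a κB match. They were 5 of 23 genes in the NF-κB list (21.7%), 1 of 23 for chemokines and cytokines (4.35%) and 3 of 17 for adhesion and antigen presentation (17.6%). Survival and oxidative defence had 4 of 15 (26.7%), matrix 3 of 22 (13.6%), ribosomal proteins 2 of 23 (8.70%) and other tissues 1 of 28 (3.57%). At 10 of the 19 start sites all 4 libraries had some peak, so the single-library call lay beside a shared site. *Tnip1*, whose product restrains NF-κB with A20, shows this. RelA replicate 1 had 17 reads (log2 fold 3.81) 159 bases from a RelA replicate 2 peak of 68 reads. At *Icam1* the RelA replicate 2 peak of 30 reads lay 32 bases from a RelB replicate 2 peak of 23 reads. The match GGGGAAGTCC in its window was outside the called peak. At *B2m*, the light chain gene of MHC class I, peaks of RelA replicate 1 (12 reads) and RelA replicate 2 (18 reads) lay 12 bases apart and neither held a match.

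At 7 of the 19 start sites no other library had a peak, namely *Ikbke*, *Ptgs2*, *Bcl2l1*, *Sod2*, *Syt1*, *Lox* and *Rps14*. *Sod2* encodes mitochondrial superoxide dismutase. Its RelA replicate 1 peak, 71 bases upstream of the start site, had 17 reads over 3 input reads, a log2 fold of 3.70 and the match GGGGTTCCCC. The nearest peak of another list, of RelA replicate 2, had 79 reads and lay 2198 bases away. *Syt1*, a synaptic vesicle gene and no fibroblast marker, had a RelB replicate 1 peak of 14 reads with the match GGGAGTTTCC. *Bcl2l1*, *Lox* and *Rps14* had peaks of 13, 11 and 11 reads without a match.

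In each list the 3 members with a κB match and the 3 without one that had the highest log2 folds were looked at. Equal numbers with and without a match were thus set by the choice. These 24 members held both neighbours of other called sites and isolated peaks. Within 200 bases of a peak of another list were 12, and over 10 kb from any were 7. The largest single-library peak of all, in the *Zzz3* intron with 105 ChIP reads over 15 input reads in RelB replicate 2 (log2 fold 4.40), lay 95 bases from a RelB replicate 1 peak of 87 reads. The κB matches in its window were outside the called peak. *Ier5*, an immediate-early gene, had a RelA replicate 2 peak of 80 reads without a match 90 bases from a RelA replicate 1 peak of 56 reads. *Rnf216* had a RelB replicate 1 peak of 25 reads (log2 fold 4.32), 120 bases from a RelA replicate 2 peak of 11 reads. The match GGACTTTCCC in its window was outside the called peak.

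The next examples are isolated peaks among these 24 members, and they do not show how often strong isolated peaks lack a match. The chromosome 15 site had 25 ChIP reads over 8 input reads in RelA replicate 2 (log2 fold 4.25) and the match GGGAAATTCC, 122881 bases from the next peak of another list. *Snx4* had 24 reads over 5 in RelB replicate 2 (log2 fold 4.09) and no match, 149491 bases away. *Rhpn2* had 20 reads over 4 in RelA replicate 1 (log2 fold 4.0) and no match, 108550 bases away. The highest fold of all members, 4.64 on the log2 scale in the *Nalcn* intron, belonged to a RelB replicate 2 peak of 51 reads over 11 without a match, 2213 bases from a peak of RelA replicate 1.

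Before TNF the same rule found 290 peaks called in 1 of the 4 libraries at 0 h, namely 121 and 134 for RelA and 25 and 10 for RelB. A κB match was in 17.3% of the 255 RelA peaks (Wilson 95% interval 13.1 to 22.4%), against 18.4% of their flanks. For RelB it was in 6 of 35 (17.1%, 8.10 to 32.7%). The κB share of single-library peaks at 0 h was thus close to that of their flanks, while at 6 h it was above the flanks by at least 17.2 percentage points. The difference between the times was not tested. Of the single-library peaks at 6 h, 29, 11, 4 and 4 (0.836, 0.479, 0.257 and 0.147%) overlapped any 0 h peak, and 3, 1, 0 and 0 of these held a match. In peaks of 2 libraries the shares were 0.387, 0.208, 0.463 and 0.468%. They were 0.203, 0.111, 0.099 and 0.0889% in peaks of 3 libraries and 0.0638, 0.0655, 0.194 and 0.127% in 4-library peaks. Single-library peaks were spread over the autosomes at 3.20 to 5.32 per megabase (median 3.99), and chromosome X had 68, or 0.408 per megabase. At 4-library peaks the values were 1.33 to 3.66 on autosomes and 0.096 on chromosome X.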

How the data were processed

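ChIP-seq was carried out on *Nfkb2*-/- MEFs at 0 h and after 6 h of 10 ng/ml TNF. The authors trimmed adapters with cutadapt, mapped reads uniquely to mm9 by Bowtie, and ran cisGenome v2.0 on each library against input (window of 200 bases, at least 4 reads, FDR under 0.1, fold above 2). Versions of Bowtie and cutadapt were not given in the sources used here. The 8 deposited lists hold read counts per peak without normalization, an FDR (q-value) between 0 and 1, and a log2 fold over scaled input. Total reads per library were not analysed here, so no sequencing depth is given. Reads summed over the called peaks were 120352 to 162105 at 6 h, which is not a measure of depth. Coordinates were taken as counted from 1.

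Peaks of the 4 lists at 6 h were compared by overlap of 1 base. Windows of 100 bases to each side of the peak centre, and windows 1000 bases away, were read from mm9 and searched for the κB consensus and for TGANTCA on both strands. Start sites came from GENCODE for mm9. Shares carry Wilson 95% intervals. Tests were the exact McNemar test, Fisher's exact test and a permutation test with 100000 resamples, with Benjamini-Hochberg adjustment over the 4 libraries and a threshold of 0.05. A planned comparison of repeat content was not run, because the genome file marks no repeats. The overlap rule, motif search and tests were tested on simulated data. Sites named in the text were, in each list, the 3 with the highest log2 fold that had a κB match, the 3 with the highest that had none (ties by ChIP reads), and single-library peaks within 1 kb of the start site of a listed gene. Genes with peaks within 50 kb were named after their counts were seen. Members, gene lists and tests were chosen with earlier results of these data known. Alternatives covered the overlap rule, FDR limit, list length, chromosomes, window, motif, distance to start sites and leaving out each library. Those that keep members over 1 kb from other peaks, that restrict the κB comparison to 15 to 19 reads, that restrict the start-site, AP-1 and GC comparisons by FDR or reads, and all others of AP-1 and GC were chosen after seeing the data. Computation used Python 3.11.15, numpy 2.4.6, pandas 2.3.3, scipy 1.17.1 and matplotlib 3.10.9.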

Additional observations from a re-analysis of the deposited data

Results flagged for a closer look

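The share of peaks within 1 kb of a start site differed in sign between the antibodies when single-library peaks were set against 4-library peaks. The difference was 1.30 and 0.506 percentage points for RelA replicates 1 and 2, and -2.53 and -3.05 percentage points for RelB replicates 1 and 2. It drew attention because both libraries of one antibody moved one way and both of the other the opposite way. The difference between the antibodies was not tested.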

How the results depend on the processing

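No paired analysis was possible because each test compares peaks or windows within 1 library, so that replicate numbers pair nothing in it (the McNemar tests pair a window with its own flank). All κB differences, against flanks and against 4-library peaks, kept their sign and passed the tests in every library under every alternative run, from 7.64 to 41.6 percentage points and from -48.3 to -19.9 percentage points. Numbers of single-library peaks fell to 866, 560, 896 and 965 (RelA replicates 1 and 2, RelB replicates 1 and 2) with FDR under 0.01 in all lists, and to 626, 410, 590 and 663 with this limit on the members only. With equal numbers of peaks per list they were 1958 in RelA replicate 1 and 1577 in RelB replicate 2, and 988 members of RelB replicate 1 lay over 1 kb from other lists' peaks. Fewer peaks entered by construction.

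The start-site difference of RelA replicate 2 turned to -1.04, -0.952 and -1.31 percentage points with gaps up to 200 bases shared, centres within 500 bases shared and members over 1 kb away. RelB replicate 1 then passed, at -3.81, -4.25 and -4.38, as it did with equal numbers of peaks (-2.63) and protein-coding start sites (-2.65). RelB replicate 2 no longer passed within 5 kb (-2.90), at FDR from 0.01 to 0.1 (-1.75) and at 10 to 19 reads (-0.864), where RelA replicate 2 passed at 7.15. The AP-1 deficit no longer passed with FDR under 0.01 in all lists (-3.87, -3.80, -2.49 and -0.904), for both RelB libraries with this limit on members (-3.48 and -1.30) and at FDR from 0.01 to 0.1 (-7.69 and -6.26), and for RelB replicate 2 at 10 to 19 reads (-5.07). GC content of RelA replicate 1 turned to 0.444, 0.496, 0.290 and 0.105 with FDR under 0.01 in all lists, in members only, at FDR from 0.01 to 0.1 and at 10 to 19 reads, and with equal numbers of peaks it was -0.494. RelA replicate 2 gave -0.843, -0.959, 0.708 and 0.917 under the first 4 of these, and RelB replicate 2 gave -1.51 at FDR from 0.01 to 0.1. The cause was not tested.

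Leaving out 1 library at a time, with the rule on the other 3 lists, gave the following ranges, in the same order of libraries. Numbers of peaks were 3647 to 3932, 2496 to 2772, 1735 to 2260 and 2973 to 3378. κB differences were 20.1 to 21.5, 19.6 to 22.0, 30.8 to 33.5 and 26.6 to 27.8 against flanks, and -41.6 to -39.2, -42.8 to -40.6, -33.3 to -32.9 and -38.5 to -37.4 against shared peaks. Start-site differences were 0.629 to 3.07, 0.0162 to 2.91, -2.97 to -1.41 and -3.58 to -1.81. AP-1 differences were -7.43 to -6.40, -7.88 to -5.63, -3.93 to -0.285 and -5.36 to -2.95, and GC differences -1.17 to -0.296, -1.66 to -0.715, -3.02 to -2.45 and -3.35 to -2.78. The start-site value of RelA replicate 1 passed without RelA replicate 2 (3.07) and that of RelA replicate 2 without RelA replicate 1 (2.91), RelB replicate 1 passed without RelB replicate 2 (-2.97), and RelB replicate 2 no longer passed without RelA replicate 2 (-1.81).

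Total reads per library were not analysed here, and how far sequencing depth sets the number of single-library peaks was not tested. Peaks of 10 to 14 reads are at the floor of the lists, and a site missing from a list is not shown to be unbound.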
